A study of Homo sapiens with 6 samples.

Results

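The genes described here are 33 genes of the integrated stress response and the unfolded protein response. They were taken by symbol, from a list chosen with earlier results of these data known, out of 62696 gene rows in the count files. They were read in 3 arms: 17 genes of the ATF4 arm, 13 genes of endoplasmic reticulum (ER) folding and degradation (the ER folding arm), and the 3 sensors of ER stress. All 33 matched 1 gene row each and passed the filter on low counts. They were measured by RNA sequencing in C4-2 cells, an established human line of castration-resistant prostate cancer, grown untreated in RPMI1640 with fetal bovine serum. The vector group (VEC, labelled WT, 3 libraries) was compared with the CDK12 knockout group (CDK12KO, made with CRISPR-Cas9, 3 libraries). CDK12 is a kinase that phosphorylates RNA polymerase II during elongation. Both groups are C4-2 cells, and the sources used here do not say whether the knockout is a single clone or whether replicates were separate cultures. The p-values therefore reflect library-to-library spread alone, possibly technical, and any other difference between the lines cannot be told apart from the knockout.

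Misfolded protein in the ER is sensed by 3 membrane proteins. PERK, encoded by EIF2AK3, phosphorylates the translation factor eIF2 alpha, which lowers protein synthesis while favouring translation of the transcription factor ATF4. IRE1, encoded by ERN1, splices the mRNA of the transcription factor XBP1, and ATF6 is cut in the Golgi to release a transcription factor. XBP1 and ATF6 are known to induce chaperones and degradation factors of the ER. ATF4 is also reached from other eIF2 alpha kinases that respond to amino acid shortage, mitochondrial stress, haem shortage or double-stranded RNA, so ATF4 targets and ER chaperones need not move together. Because ATF4 and XBP1 are controlled largely by translation and splicing, gene counts do not show their activity.

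Promoter letters are shown because the regulators of the arms bind different elements. RefSeq promoters (GRCh38.p14, 250 bases before to 50 after the annotated start) were found for 30 members, 14 in the ATF4 arm, 13 in the ER folding arm and the 3 sensors. PSPH, SHMT2 and NUPR1 were not matched. The C/EBP-ATF composite element that ATF4 binds with a C/EBP partner was searched as TGATGNAA on both strands. It was present in 3 of 14 ATF4 arm promoters (21.4%), in 1 of 13 ER folding promoters (7.69%) and in 3.62% of all 35116 promoters of the same length. The ER stress element, bound by ATF6 with NF-Y, was searched on both strands as CCAAT and CCACG with 9 bases between them. It was present in 5 of 13 ER folding promoters (38.5%), in 0 of 14 ATF4 arm promoters and in 0.0769% of all promoters. The UPR element, searched as TGACGTGG on both strands, was in 0 members and 0.729% of all promoters. Read on the other strand the UPR element contains the letters CCACG of the ER stress element, and the composite element shares no such run with them. A match is a description of sequence, not a shown binding site. The arms list known genes of these pathways, so the shares are background and were not tested. Each line below runs 5′ to 3′ on the gene's strand, with the matching letters, spacer included, in capitals. The first 4 hold the composite element and the last 6 the ER stress element.

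CHAC1 (chr15:40953251-40953280, + strand): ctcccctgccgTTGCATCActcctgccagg
ASNS (chr7:97872458-97872487, - strand): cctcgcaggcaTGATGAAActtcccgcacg
CEBPG (chr19:33374060-33374089, + strand): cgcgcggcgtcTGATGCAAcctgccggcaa
HERPUD1 (chr16:56931955-56931984, + strand): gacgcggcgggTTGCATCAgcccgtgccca
HSPA5 (chr9:125241386-125241414, - strand): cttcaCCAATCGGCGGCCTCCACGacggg
HSP90B1, far copy (chr12:103930211-103930239, + strand): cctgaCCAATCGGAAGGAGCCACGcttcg
HSP90B1, near copy (chr12:103930316-103930344, + strand): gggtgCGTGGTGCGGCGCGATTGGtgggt
PDIA6 (chr2:10812848-10812876, - strand): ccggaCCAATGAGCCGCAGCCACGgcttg
CRELD2 (chr22:49918549-49918577, + strand): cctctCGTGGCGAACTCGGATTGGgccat
XBP1 (chr22:28800598-28800626, - strand): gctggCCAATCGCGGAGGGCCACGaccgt

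HSPA5 encodes BiP, the main ER chaperone and the usual reporter of ER stress, so the 250 bases before its start are printed in full (chr9:125241344-125241593, - strand). The exact match to the ER stress element is the only stretch in capitals and lies 66 to 48 bases before the start. Copies with variant letters were not searched for.

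HSPA5: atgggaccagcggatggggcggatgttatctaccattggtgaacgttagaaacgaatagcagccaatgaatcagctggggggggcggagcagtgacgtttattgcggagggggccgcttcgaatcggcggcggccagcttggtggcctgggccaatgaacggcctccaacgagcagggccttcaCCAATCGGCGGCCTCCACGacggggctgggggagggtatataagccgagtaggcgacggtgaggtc

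The libraries held 24660798 to 30732841 reads, with 16617644 to 21590817 counted in genes, and member counts ran from 38 to 41428 per library. Knockout library 2 stood apart. Its log2 CPM (library-scaled read counts) correlated with those of the other 5 libraries at r = 0.916 to 0.950 across genes, against 0.977 to 0.990 among the other 5, and its TMM scaling factor was 0.737 against 1.04 to 1.10. Each member is given with and without it. CDK12, the targeted gene, was at 60.2, 48.0 and 57.1 CPM in vector and 60.8, 56.9 and 56.5 CPM in knockout libraries, a log2 fold change of 0.08 without knockout library 2 (edgeR adjusted p = 0.60), and a whole-gene count does not check a CRISPR edit. All 10 prostate luminal epithelial markers examined were present (92.7 to 5847 CPM). Of 10 immune, fibroblast, endothelial and basal markers 8 stayed under 3 CPM in every library, and the highest value was 28.4 CPM. For 3 of them there were 0 counts in all libraries, which allows at most 0.189 CPM (3 counts in knockout library 2, the smallest library after TMM scaling, counting error only).

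The ATF4 arm was higher and the ER folding arm lower in the knockout line. In the fit without knockout library 2, 12 of 17 ATF4 arm genes rose and 0 fell, while 10 of 13 ER folding genes fell and 0 rose, by edgeR's quasi-likelihood test with adjusted p under 0.05 over all 16339 tested genes. EIF2AK3 was the only sensor past that threshold, and it was lower. Of all tested genes 10.2% passed higher and 8.88% lower in that fit. The median log2 fold change was 0.32 in the ATF4 arm and -0.37 in the ER folding arm, against -0.01 over all genes. The changes were modest in size, from -0.66 to 0.95 on the log2 scale across the members.

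With all 6 libraries 0 of 33 members passed over 15783 tested genes, where 0.418% of all genes passed higher and 0.177% lower. Of the members 16 had an unadjusted p under 0.05 in that fit, as did 21.7% of all genes. On the same libraries DESeq2 called 5 members higher (DDIT3, TRIB3, CHAC1, DDIT4 and PHGDH) and 3 lower (HSPA5, DNAJC3 and PDIA4), where it called 3.07% of all genes higher and 1.34% lower. Limma-voom called 1 member, DDIT4, higher, and 0.418% of all genes higher and 0.247% lower. The arms kept opposite signs, with a median of 0.54 in the ATF4 arm and -0.41 in the ER folding arm and 0.00 over all genes. The coefficient of biological variation over all genes was 24.2% with knockout library 2 and 8.0% without it. Because knockout library 2 was no part of the smaller fit, its own values can be set beside those calls. The vector libraries in this comparison also gave the calls, so it is not an independent check. Of the 12 members that rose, 11 (91.7%) were above the highest vector library in knockout library 2, against 93.1% of all genes that rose. Of the 11 that fell, 8 (72.7%) were below the lowest vector library, a smaller share than the 90.2% of all genes that fell.

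**Figure D1:**
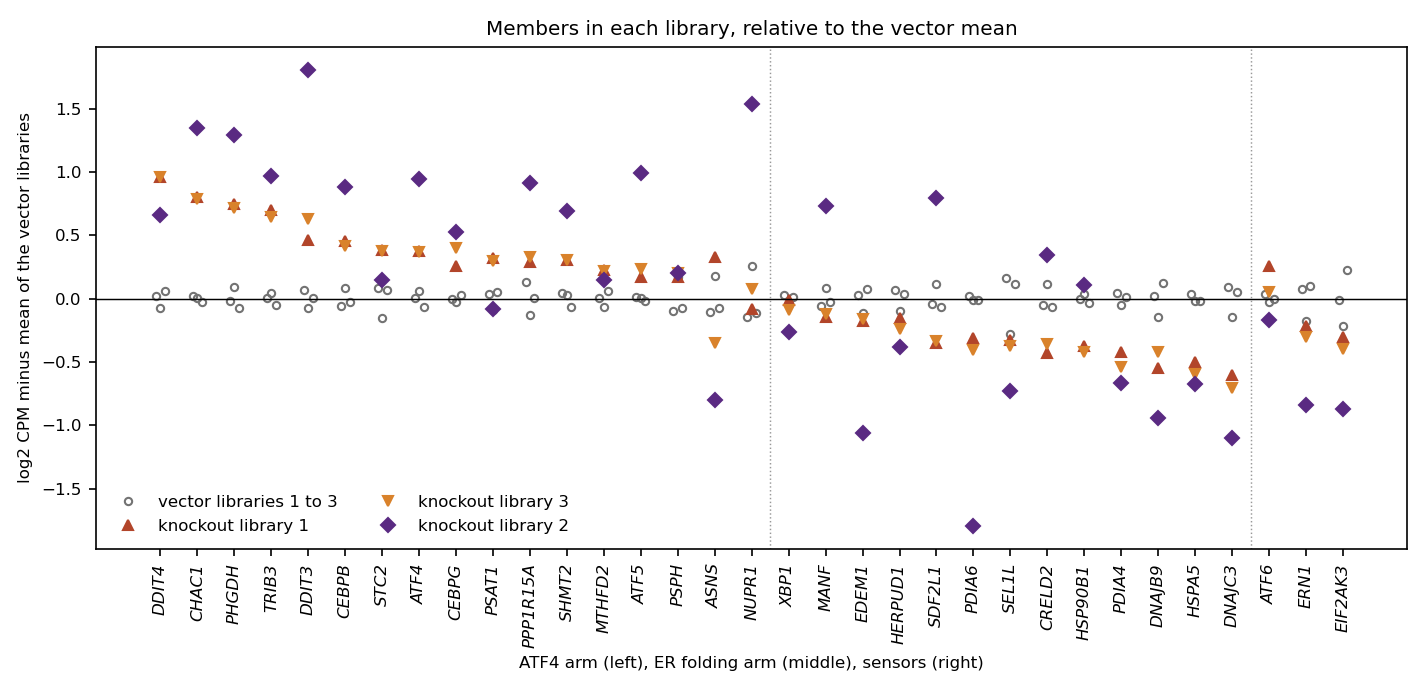
Log2 CPM of each member in each library minus the mean of the 3 vector libraries, with genes ordered within each arm by their fitted change (points are single libraries). Knockout libraries 1 and 3 lie together, above 0 for most of the ATF4 arm and below 0 for the ER folding arm, while knockout library 2 spreads from -1.79 (PDIA6) to 1.81 (DDIT3).

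Among the transcription regulators of the ATF4 arm, ATF4 RNA itself (ENSG00000128272.18, chromosome 22, 39519695 to 39522685, GRCh38) stood at 747, 775 and 712 CPM in vector libraries 1 to 3. The knockout libraries held 966, 1433 and 963 CPM. All 3 knockout libraries were above all 3 vector libraries, and knockout library 2 was the highest. Without that library ATF4 rose by 0.37 ± 0.06 on the log2 scale (SE, edgeR adjusted p = 0.000415), or 1.29-fold. The value with all libraries was 0.59 ± 0.21 (edgeR adjusted p = 0.211).

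DDIT3 encodes CHOP, a factor tied to cell death under prolonged stress (chromosome 12, 57516588 to 57521737). It was at 20.6, 18.7 and 19.8 CPM in the vector group and at 27.1, 69.1 and 30.5 CPM in the knockout group. The groups did not overlap, and knockout library 2 was more than the other 2 knockout libraries together. DDIT3 rose by 0.54 ± 0.11 without that library (edgeR adjusted p = 0.00167). The value was 1.10 ± 0.35 with it (edgeR adjusted p = 0.196). The call also ended when knockout library 3 was left out of the smaller fit (edgeR adjusted p = 0.0696). In GENCODE 29, 39.6% of the exonic bases of DDIT3 overlap other genes, and reads shared between genes were not counted.

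The C/EBP partners of ATF4 rose in the smaller fit. CEBPB went from 68.8, 75.6 and 70.3 CPM to 97.8, 132 and 95.4 CPM, a rise of 0.43 ± 0.07 (edgeR adjusted p = 0.000387). CEBPG, whose promoter letters hold the composite element printed above, was at 79.7, 78.3 and 81.4 CPM in the vector and 95.1, 115 and 105 CPM in the knockout libraries. Its change was 0.32 ± 0.07 (edgeR adjusted p = 0.00423), and the call ended without knockout library 3 (edgeR adjusted p = 0.163). In both genes every knockout library was above every vector library. An antisense gene covers 11.8% of the exonic bases of CEBPB. With the length and GC correction CEBPB had a change of 0.22 (edgeR adjusted p = 0.0225), and of 0.20 with all libraries. ATF5, an ATF4-related factor of the mitochondrial stress response, held 43.1 to 43.9 CPM in the vector group against 49.2, 86.9 and 51.3 CPM. Its change of 0.20 ± 0.08 did not pass (edgeR adjusted p = 0.107). Other genes cover 23.7% of the exonic bases of ATF5, and with reads of both strands added its change was 0.029 without knockout library 2 and 0.19 with all libraries. The added reads include those of opposite-strand genes in the overlap. NUPR1, a small stress-induced chromatin protein, was low, at 6.75 to 8.96 CPM in the vector libraries. Its knockout libraries 1 and 3 lay within that range and knockout library 2 was at 21.9 CPM, so its fitted change went from -0.01 without that library to 0.70 with it, and neither passed. With all libraries the changes were 0.60 ± 0.15, 0.40 ± 0.12 and 0.52 ± 0.23 for CEBPB, CEBPG and ATF5 (edgeR adjusted p = 0.155, 0.180 and 0.235).

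The stress effectors held the largest rise of the members without knockout library 2, and DDIT3 rather than an effector had the highest value with all libraries. DDIT4 encodes REDD1, an inhibitor of mTORC1 (chromosome 10, 72273920 to 72276036). It stood at 160, 150 and 164 CPM in the vector group, and at 307, 249 and 307 CPM in the knockout group. The groups were well apart, and here knockout library 2 was the lowest of its group. The log2 fold change was 0.95 ± 0.06 (edgeR adjusted p = 6.09e-09), or 1.94-fold, without that library. With it the change was 0.87 ± 0.14 (edgeR adjusted p = 0.0535). An antisense gene covers 41.2% of the exonic bases of DDIT4. When reads of both strands were added, which keeps reads in that overlap, the change without knockout library 2 was 0.94. That sum also counts reads of the antisense gene in the overlap for DDIT4.

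CHAC1 encodes an enzyme that breaks down glutathione and is a sensitive ATF4 target (chromosome 15, 40952962 to 40956519). The vector libraries held 23.6, 23.3 and 22.9 CPM, and the knockout libraries 40.6, 59.3 and 40.2 CPM. Its vector values were nearly level and every knockout library was higher. CHAC1 rose by 0.79 ± 0.10 (edgeR adjusted p = 1.21e-05), or 1.73-fold. TRIB3, a pseudokinase that restrains AKT and ATF4 (chromosome 20, 362835 to 397559), went from 122, 125 and 117 CPM to 197, 238 and 189 CPM. That was a rise of 0.67 ± 0.06 (edgeR adjusted p = 9.32e-07), or 1.59-fold. With all libraries the changes were 1.00 ± 0.18 for CHAC1 and 0.78 ± 0.13 for TRIB3 (edgeR adjusted p = 0.0728 and 0.0675). STC2, a secreted glycoprotein, held 93.7 to 111 CPM against 136, 116 and 135 CPM, and rose by 0.37 ± 0.08 (edgeR adjusted p = 0.00211). PPP1R15A encodes GADD34, which directs the phosphatase that reverses eIF2 alpha phosphorylation. It was at 7.33 to 8.80 CPM against 9.87, 15.2 and 10.1 CPM and did not pass (0.30 ± 0.16, edgeR adjusted p = 0.195), although its groups did not overlap. With all libraries the values were 0.30 ± 0.13 and 0.54 ± 0.22 for STC2 and PPP1R15A (edgeR adjusted p = 0.232 and 0.222).

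**Figure D2:**
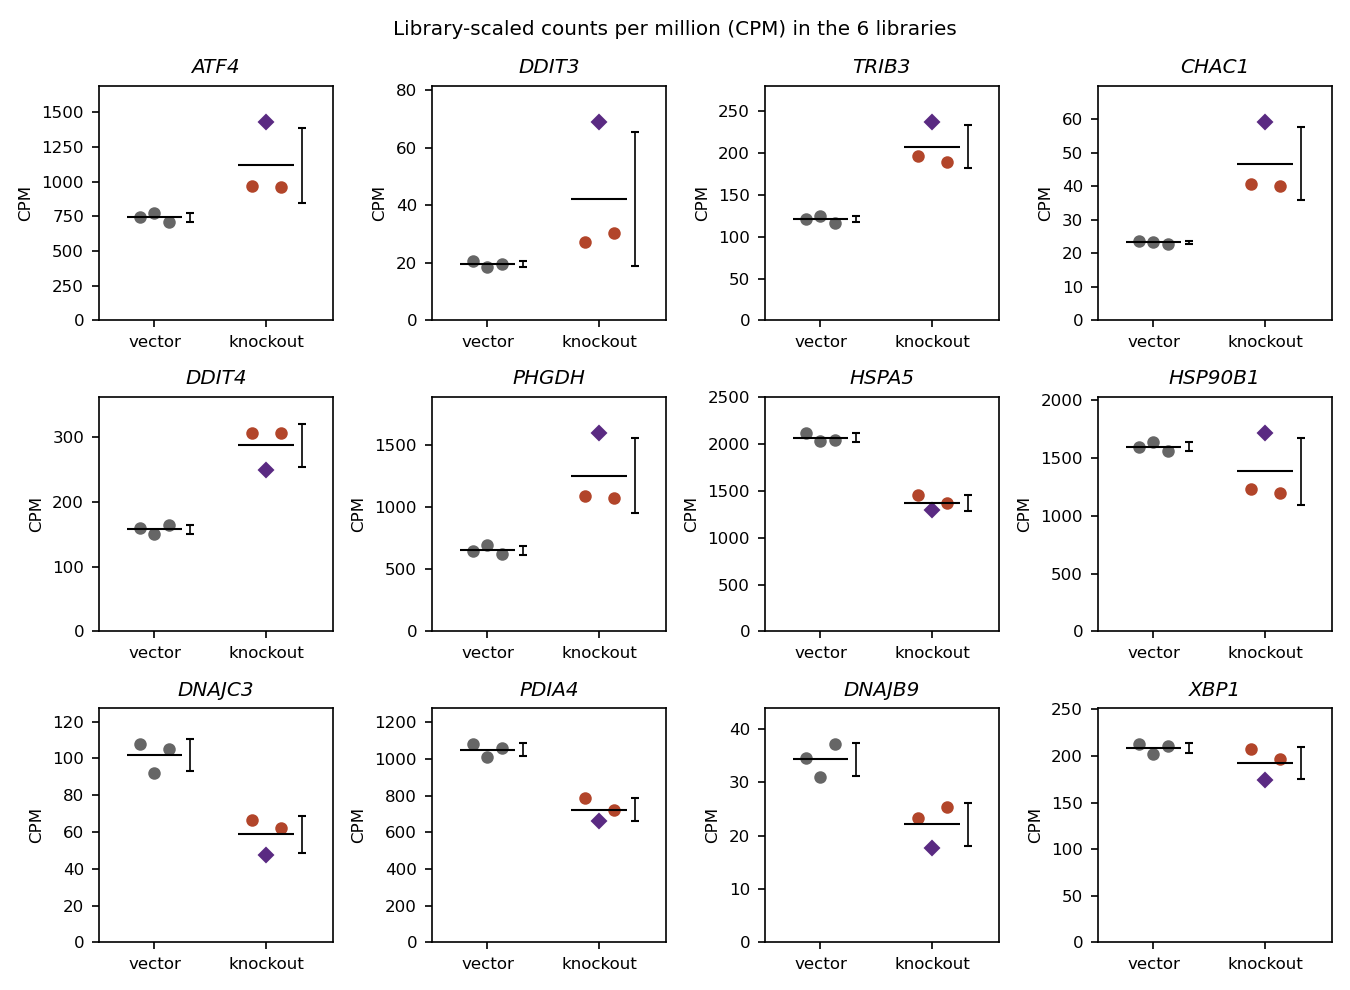
Library-scaled CPM (axes from 0) of 12 members, with vector libraries in grey, knockout libraries 1 and 3 in red and knockout library 2 as a purple diamond (horizontal bar, group mean; whisker, SD, n = 3). DDIT4 at 249 to 307 CPM in the knockout against 150 to 164 CPM in the vector, and HSPA5 at 1292 to 1460 against 2035 to 2120 CPM, do not overlap, while HSP90B1 separates only without knockout library 2.

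The amino acid enzymes of the ATF4 arm were less uniform. PHGDH, which opens serine synthesis from glucose, was at 644, 693 and 621 CPM in the vector and 1094, 1599 and 1072 CPM in the knockout libraries. It rose by 0.73 ± 0.06 (edgeR adjusted p = 2.60e-07), or 1.65-fold, the largest change of this group. PSAT1, the next enzyme of that pathway, went from 327, 299 and 331 CPM to 398, 301 and 391 CPM. Knockout library 2 lay inside the vector range for PSAT1, the only member among the 12 that rose for which this held. Its change was 0.30 ± 0.06 (edgeR adjusted p = 0.00277). PSPH, the last step, held 86.4, 104 and 87.8 CPM against 104, 106 and 106 CPM and did not pass (edgeR adjusted p = 0.144). Left without vector library 2, its change of 0.26 passed (edgeR adjusted p = 0.00178).

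SHMT2 and MTHFD2 carry the serine-derived carbon unit into mitochondrial folate. SHMT2 was at 415 to 448 CPM in the vector and 538, 705 and 539 CPM in the knockout libraries, a rise of 0.30 ± 0.06 (edgeR adjusted p = 0.00218). MTHFD2 was at 105 to 115 CPM and 129, 122 and 128 CPM, a rise of 0.22 ± 0.07 (edgeR adjusted p = 0.0327). Both lay above the vector range in every knockout library. Genes on the opposite strand cover 33.2% of the exonic bases of MTHFD2. The calls were thin: PSAT1 lost its call without knockout library 1 (edgeR adjusted p = 0.0699), SHMT2 without knockout library 1 or 3 (0.0541 and 0.0535), and MTHFD2 without vector library 1 or knockout library 1 or 3 (0.0723, 0.236 and 0.216). ASNS, asparagine synthetase, is a classical ATF4 target and was the exception, at 3.94, 4.81 and 4.01 CPM against 5.33, 2.39 and 3.31 CPM. Its groups overlapped and its fitted change was 0.02 ± 0.24. In GENCODE 29 another gene on the same strand covers 44.6% of its exonic bases, and reads shared with it were not counted, so the level of ASNS is uncertain. In the fit of all 6 libraries the 6 enzymes had log2 fold changes of 0.94 ± 0.21, 0.19 ± 0.16, 0.18 ± 0.12, 0.45 ± 0.17, 0.20 ± 0.11 and -0.20 ± 0.32 for PHGDH, PSAT1, PSPH, SHMT2, MTHFD2 and ASNS (edgeR adjusted p = 0.116, 0.451, 0.353, 0.215, 0.291 and 0.690).

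In the ER folding arm the chaperones were lower. HSPA5 (chromosome 9, 125234853 to 125241330) was, per kilobase of exon, the most abundant member, at 1701 TPM in the vector libraries. Its libraries held 2120, 2035 and 2041 CPM in the vector and 1460, 1292 and 1368 CPM in the knockout. The lowest vector library was above the highest knockout library by a wide margin. HSPA5 fell by 0.55 ± 0.07 on the log2 scale without knockout library 2 (edgeR adjusted p = 1.14e-05), to 0.682 of the vector level. With all libraries the change was -0.59 ± 0.17 (edgeR adjusted p = 0.179), so knockout library 2 moved the estimate little and widened its error.

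DNAJC3 encodes p58IPK, a BiP cochaperone that is also known to inhibit PERK (chromosome 13, 95677139 to 95794989). It went from 108, 92.0 and 105 CPM to 66.6, 47.2 and 62.3 CPM. Every knockout library was below every vector library, and the fall was the largest of the 33 members. The log2 fold change was -0.66 ± 0.08 (edgeR adjusted p = 1.60e-05), and -0.79 ± 0.16 with all libraries (edgeR adjusted p = 0.0948). DNAJB9, another BiP cochaperone and a known XBP1 target, held 34.6, 31.0 and 37.2 CPM against 23.3, 17.7 and 25.4 CPM. It fell by 0.50 ± 0.11 (edgeR adjusted p = 0.00290), and the call ended without knockout library 1 (edgeR adjusted p = 0.0643).

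The disulfide isomerases were lower too. PDIA4 was at 1082, 1012 and 1057 CPM in the vector and 785, 662 and 721 CPM in the knockout libraries, a change of -0.49 ± 0.07 (edgeR adjusted p = 4.43e-05). PDIA6 was at 270 to 276 CPM against 219, 78.4 and 206 CPM. Knockout library 2 thus held a far lower PDIA6 value than its 2 companions, which alone gave a fall of 0.36 ± 0.06 (edgeR adjusted p = 0.000485). A gene on the opposite strand covers 25.2% of the exonic bases of PDIA6, and with reads of both strands added the fall was 0.24. With all libraries that sum took PDIA6 from -0.70 to -0.29. The sum also counts reads of the opposite-strand gene in the overlap for PDIA6. All libraries together gave -0.63 ± 0.17, -0.54 ± 0.16 and -0.70 ± 0.35 for DNAJB9, PDIA4 and PDIA6 (edgeR adjusted p = 0.161, 0.180 and 0.272).

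In 4 chaperone and cochaperone genes knockout library 2 went against the other 2 knockout libraries. HSP90B1 (GRP94, the ER member of the HSP90 family) held 1594, 1637 and 1559 CPM in the vector and 1233, 1716 and 1195 CPM in the knockout libraries. SDF2L1, a BiP partner, held 238, 266 and 235 CPM against 193, 426 and 195 CPM. CRELD2, a secreted ER stress protein, held 227, 255 and 224 CPM against 175, 298 and 184 CPM. In each of these, knockout libraries 1 and 3 were below all vector libraries and knockout library 2 was above them. Without it the changes were -0.40, -0.35 and -0.40 and all 3 genes fell (edgeR adjusted p = 0.000201, 0.00127 and 0.000496). MANF, a secreted ER protein, had the same layout, with 263, 290 and 269 CPM against 247, 455 and 251 CPM, and did not pass (-0.14 ± 0.06, edgeR adjusted p = 0.133). With knockout library 2 included the values were -0.21 ± 0.21, 0.14 ± 0.32, -0.11 ± 0.22 and 0.21 ± 0.25 for HSP90B1, SDF2L1, CRELD2 and MANF (edgeR adjusted p = 0.520, 0.789, 0.770 and 0.595).

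Of the degradation factors, SEL1L, the scaffold of the HRD1 ubiquitin ligase, held 69.0, 50.6 and 66.6 CPM against 49.1, 37.1 and 47.4 CPM, and fell by 0.37 ± 0.11 (edgeR adjusted p = 0.0222). HERPUD1, a further HRD1 partner, held 282, 251 and 276 CPM against 243, 207 and 229 CPM, a fall of 0.20 ± 0.07 (edgeR adjusted p = 0.0458). The groups were apart in both genes but by little. Both calls ended when any further library but vector library 2 was left out (edgeR adjusted p of 0.0885 to 0.166 for SEL1L and 0.122 to 0.410 for HERPUD1). HERPUD1 also missed the threshold with RLE factors, without the low-count filter and in DESeq2 (adjusted p = 0.0540, 0.0580 and 0.0514). EDEM1, a mannosidase-like factor, was at 56.3 to 64.2 CPM against 53.8, 29.1 and 54.4 CPM and did not pass (edgeR adjusted p = 0.155). It passed without vector library 2 (-0.23, edgeR adjusted p = 0.0141). The fit of all libraries gave -0.48 ± 0.17, -0.25 ± 0.13 and -0.41 ± 0.24 for SEL1L, HERPUD1 and EDEM1 (edgeR adjusted p = 0.211, 0.275 and 0.314).

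XBP1 was the transcription regulator of the ER folding arm (chromosome 22, 28794555 to 28800597). It was at 213, 203 and 211 CPM in the vector and 207, 174 and 197 CPM in the knockout libraries. The groups overlapped, and the change was -0.05 ± 0.06 (edgeR adjusted p = 0.609). Gene counts join its spliced and unspliced forms. Among the sensors, EIF2AK3 held 23.8, 20.7 and 28.1 CPM against 19.4, 13.1 and 18.1 CPM, a fall of 0.37 ± 0.13 (edgeR adjusted p = 0.0475). That call ended when any library but vector library 2 was also left out (edgeR adjusted p of 0.0998 to 0.300). It was also lost in DESeq2 and limma-voom (adjusted p = 0.0960 and 0.0620). ERN1 was at 27.3 to 32.9 CPM against 26.5, 17.2 and 24.9 CPM (-0.27 ± 0.11, edgeR adjusted p = 0.0940), and passed without vector library 2 (-0.35, edgeR adjusted p = 0.00569). ATF6 was at 37.6 to 39.1 CPM against 45.7, 34.1 and 39.7 CPM (0.15 ± 0.09, edgeR adjusted p = 0.273). Over all 6 libraries the values were -0.12 ± 0.12, -0.52 ± 0.20, -0.43 ± 0.19 and 0.06 ± 0.14 for XBP1, EIF2AK3, ERN1 and ATF6 (edgeR adjusted p = 0.554, 0.217, 0.239 and 0.795).

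**Figure D3:**
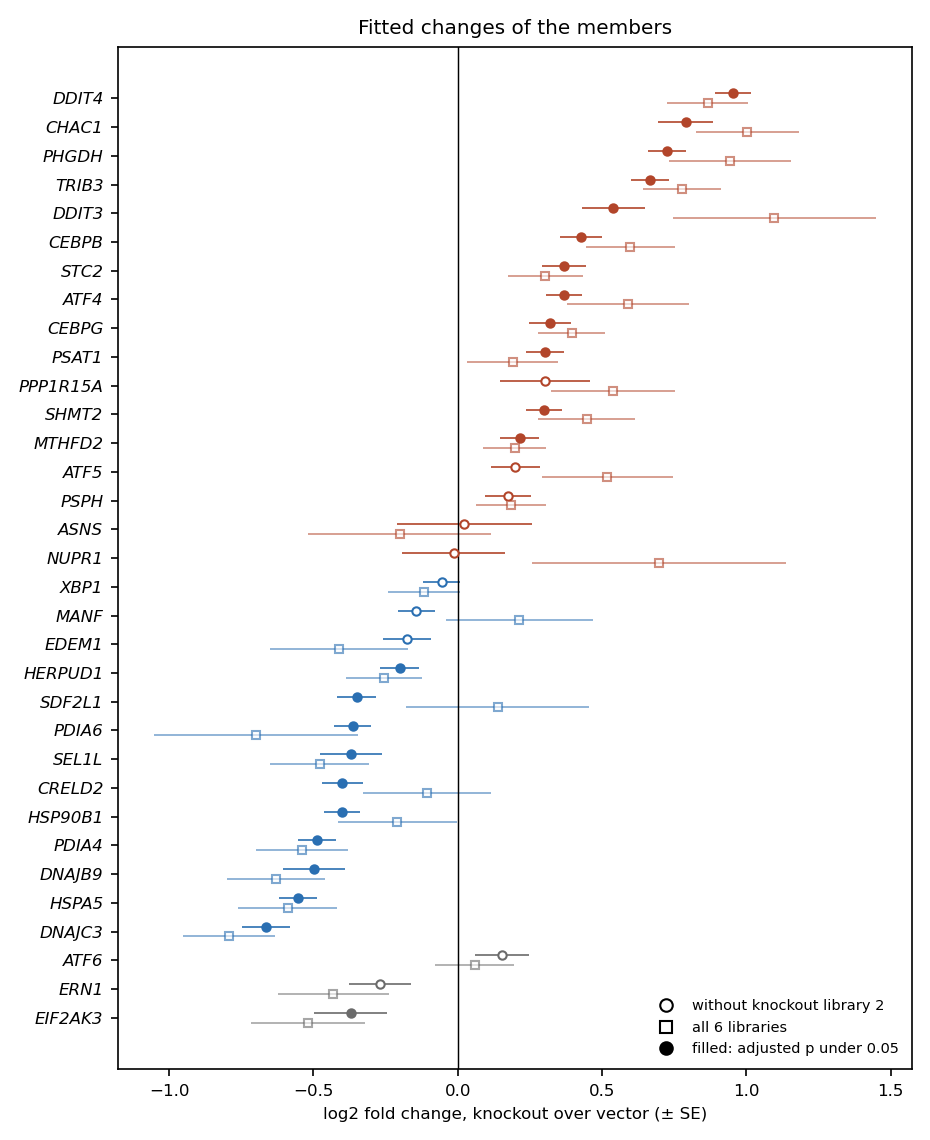
Log2 fold change of each member, knockout over vector, with its SE, from the fit without knockout library 2 (circles) and with all 6 libraries (squares), in red for the ATF4 arm, blue for the ER folding arm and grey for the sensors. Filled symbols have an adjusted p under 0.05 (23 circles and 0 squares), and the circles run from DNAJC3 (-0.66) to DDIT4 (0.95).

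The separation of the arms shows in single libraries as well. The CPM ranges of the 3 knockout and 3 vector libraries did not overlap for 13 of 17 ATF4 arm genes, all higher, and for 8 of 13 ER folding genes, all lower. Of all tested genes 20.4% were apart higher and 19.0% lower. Without knockout library 2 the counts were 14 higher in the ATF4 arm and 12 lower in the ER folding arm, against 24.5% and 22.8% of all genes. XBP1 was the ER folding gene that still overlapped. Relative to the mean of the vector group, the median ATF4 arm gene shifted by 0.32 in knockout library 1, 0.88 in library 2 and 0.37 in library 3, and the median ER folding gene by -0.35, -0.67 and -0.37. In bulk RNA a smaller share of cells with high expression and a lower level in every cell cannot be told apart.

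Knockout library 2 departed from knockout libraries 1 and 3 in a way that went with transcript length and GC content. Over 15250 tested genes with an annotation, the departure correlated with transcript length at Spearman rho = -0.37 and with GC content at 0.31, and over the 33 members at -0.48 and 0.56. Within the ATF4 arm the values were -0.11 and 0.38, and within the ER folding arm -0.49 and 0.65. These are correlations across genes of the same libraries, not across replicates. The members with the largest positive departures included the short transcripts of SDF2L1 (865 bases, 1.13) and DDIT3 (1067 bases, 1.26), and NUPR1 (5491 bases, 1.54) went against the trend. PDIA6 had the lowest departure, -1.43, at 2682 bases, in the unstranded counts. The ATF4 arm had a median transcript of 2356 bases and 52.3% GC, and the ER folding arm 2903 bases and 45.8% GC. Knockout library 2 also had 14.4% of its reads in more than 1 gene (95% Wilson interval within 0.0125 percentage points), against 11.1% to 12.2% elsewhere. The part of these features in the members' values was not tested beyond a correction for length and GC. With that correction the fit without knockout library 2 called 13 members higher and 11 lower, against 9.67% and 9.76% of all genes, and its ATF4 arm median was 0.27. It moved SEL1L to -0.24 and SDF2L1 to -0.55 (edgeR adjusted p = 0.0428 and 1.87e-07). ATF6 (0.27) and MANF (-0.24) passed only there among the alternatives (edgeR adjusted p = 0.0238 and 0.00461), and EIF2AK3 no longer did (0.0521). With all libraries the correction moved ATF4 from 0.59 to 0.35, CHAC1 from 1.00 to 0.65 and ATF5 from 0.52 to 0.22. PPP1R15A went from 0.54 to 0.32, while MTHFD2 rose from 0.20 to 0.41. In the ER folding arm SEL1L went from -0.48 to -0.19 and SDF2L1 from 0.14 to -0.45.

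**Figure D4:**
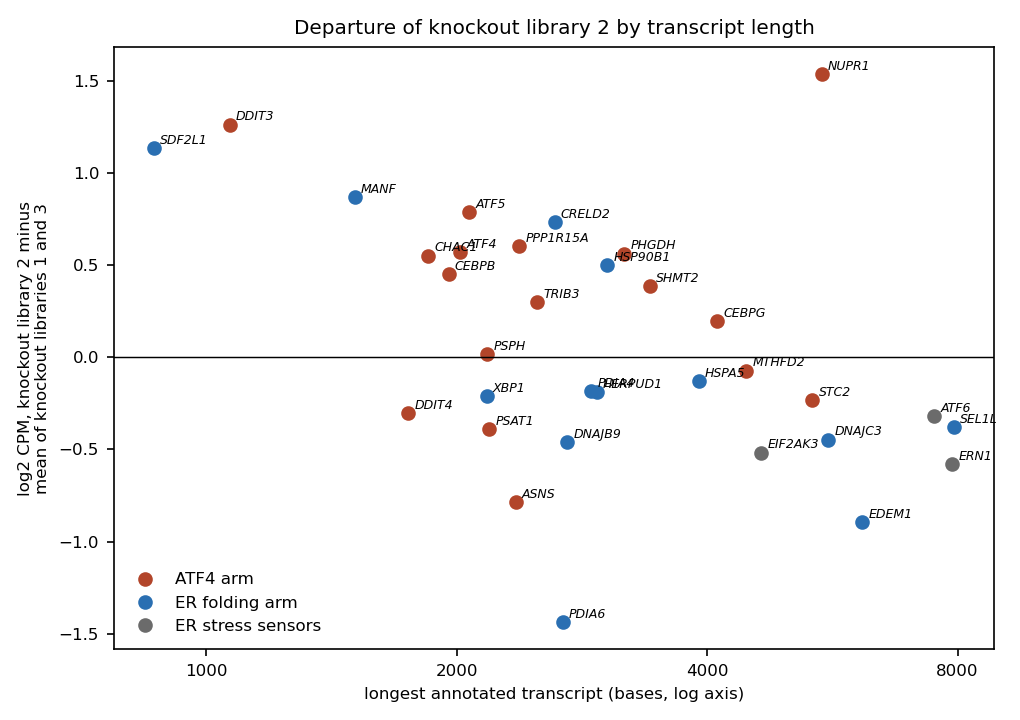
Log2 CPM of each member in knockout library 2 minus the mean of knockout libraries 1 and 3, against the longest transcript in GENCODE 29 (bases, log axis), 1 point per gene, coloured by arm. Long transcripts such as ERN1 and EDEM1 lie below 0 and short ones such as SDF2L1 and MANF above it, with NUPR1 and PDIA6 away from that trend. The trend was loose: the short transcripts of ASNS (-0.79), PSAT1 (-0.39) and DDIT4 (-0.30) also lie below 0, and CEBPG (4109 bases, 0.20) above it. Within the ATF4 arm the trend was weak (Spearman rho = -0.11).

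Per kilobase of exon, the vector levels of the members ran from 3.06 TPM (ASNS) to 1701 TPM (HSPA5). Chaperones headed the order, with HSP90B1 at 1094 TPM, PDIA4 at 1033 TPM and SDF2L1 at 719 TPM, and ATF4 stood among them at 952 TPM. The sensors were low, at 14.4 TPM for EIF2AK3, 15.6 TPM for ATF6 and 9.18 TPM for ERN1. DDIT3 at 48.6 TPM and CHAC1 at 36.4 TPM were thus readable in vector cells, where no stress was applied.

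Other genes of the same pathways, taken from lists drawn up by function, are described in the fit without knockout library 2. In that fit 10.2% of all genes rose and 8.88% fell. The lists and the library to leave out were chosen with earlier results of these data known. The counts below are therefore a description and no independent test of the arms. Of 34 other ATF4 and integrated stress response targets 16 rose and 1 fell, with a median of 0.21. GDF15, a secreted stress cytokine, went from 184, 177 and 174 CPM to 358, 487 and 339 CPM, a rise of 0.96 ± 0.06 (edgeR adjusted p = 3.80e-09). It was the only gene of these lists that passed with all libraries (1.15, edgeR adjusted p = 0.0468, and 0.105 to 0.316 when a library other than knockout library 2 was left out). That call also ended under RLE factors, the length and GC correction, the stranded sum and the replicate block (0.0512 to 0.107). JDP2, a bZIP repressor, rose by 1.51 ± 0.16 (edgeR adjusted p = 3.55e-06), from 6.55, 11.9 and 9.12 CPM to 26.7, 22.4 and 25.5 CPM. EIF4EBP1, which encodes the translation inhibitor 4E-BP1, rose by 0.65 and PCK2, the mitochondrial PEP carboxykinase, by 0.60 (edgeR adjusted p = 3.69e-06 and 4.56e-06). With all libraries the values were 1.20 for EIF4EBP1 and 0.38 for PCK2 (edgeR adjusted p = 0.180 and 0.319). The length and GC correction took them to 0.61 and 0.19. Within this list 4 of 7 amino acid transporters rose and 0 fell, with a median of 0.28, and 4 of 12 aminoacyl-tRNA synthetases rose and 0 fell, with a median of 0.10. With all libraries 0 of either passed.

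Of 36 other ER folding, translocation and degradation genes 17 fell and 1 rose, with a median of -0.21. HYOU1, the ER chaperone GRP170, went from 413, 383 and 392 CPM to 245, 79.6 and 242 CPM (-0.71 ± 0.06, edgeR adjusted p = 3.85e-07), and had a value of -1.07 with all libraries (edgeR adjusted p = 0.214). SEC24D, a COPII coat subunit, fell by 0.80, SPCS3 of the signal peptidase by 0.56 and DNAJC10, an ER reductase, by 0.57 (edgeR adjusted p = 1.11e-05, 1.88e-05 and 5.34e-05), DNAJC10 by 0.37 with the length and GC correction. With all libraries 0 of the 36 passed. Of 16 other eIF2 alpha and ER stress signalling genes tested, 5 fell and 0 rose, with a median of -0.07. They included EIF2S1, which encodes eIF2 alpha itself, at 225, 224 and 225 CPM against 191, 186 and 185 CPM (-0.26 ± 0.06, edgeR adjusted p = 0.00605), and the amino acid sensing kinase gene EIF2AK4 at -0.31 (edgeR adjusted p = 0.0132). MBTPS1 and MBTPS2, the proteases that cut ATF6, were at -0.28 and -0.47 (edgeR adjusted p = 0.0111 and 0.00543). All 4 of these signalling calls ended without knockout library 3 (edgeR adjusted p of 0.0783 to 0.312), those of EIF2S1, MBTPS1 and MBTPS2 also without knockout library 1 (0.0565 to 0.138) and those of MBTPS1 and EIF2AK4 without vector library 1 (0.0599 and 0.0742).

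**Figure D5:**
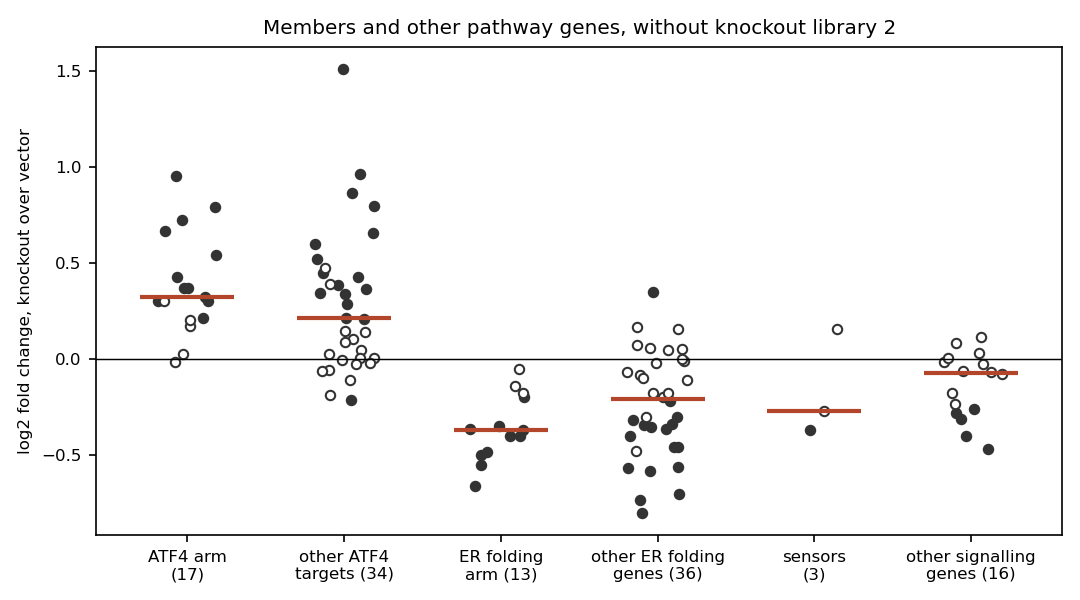
Log2 fold change of each gene, knockout over vector, in the fit without knockout library 2, for the 3 arms and 3 lists of other pathway genes (tested genes in brackets, filled points with an adjusted p under 0.05, red bar the median). The ATF4 lists have medians of 0.32 and 0.21 and the ER folding lists medians of -0.37 and -0.21.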

How the data were processed

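The authors deposited whole-number read counts per gene, not normalised, in the layout of STAR gene counts. Per the submitters' processing notes FastQC, STAR and GRCh38 were used. Their versions and the annotation: not given in the sources used here. The unstranded column was used, so antisense reads are mixed in where no second annotated gene overlaps. Reads in several genes, mapping to several places, outside genes or unmapped (4 summary rows) stayed out of tests. Symbols were matched by identifier (62625 of 62696).

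Groups came from the sample titles. Tests were run with edgeR 4.0.16 under R 4.3.3 (low counts filtered by filterByExpr, TMM scaling, robust quasi-likelihood test, Benjamini-Hochberg adjustment over all tested genes, threshold 0.05) on all 6 libraries and on 5. SE is the log2 fold change over the root of F. CPM use TMM factors, log2 CPM a prior count of 2, and TPM the exonic length in GENCODE 29, which also gave coordinates and overlaps and need not be the annotation the authors counted with (96.6% of tested genes matched). Shares of reads have a Wilson interval of at most 0.0125 points to either side, for counting error only. The fit was also run on simulated counts drawn from its own dispersions. No simulated library was made to stand apart, so that run says nothing on knockout library 2. The members, lists and library to leave out were chosen with earlier results of these data known. All members are reported, and from each other list the 4 genes with the smallest adjusted p without knockout library 2. Alternatives were RLE factors, no filter, DESeq2 1.42.0, limma-voom 3.58.1, a replicate block, a length and GC correction (splines with 5 degrees of freedom), leaving out each library, and, added after the data were seen, the sum of the stranded columns.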

Additional observations from a re-analysis of the deposited data

How the results depend on the processing

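With all 6 libraries the members called higher and lower went from 0 and 0 to 4 and 1 without a low-count filter, 5 and 3 in DESeq2, 1 and 0 in limma-voom and 1 and 1 with the length and GC correction, and ranged over 0 to 12 and 0 to 11 with 1 library left out, the upper ends without knockout library 2. The ER folding median was -0.25 with that correction and -0.54 to -0.37 with 1 library left out. Without knockout library 2 the calls ranged over 8 to 13 higher and 7 to 13 lower with a further library left out, and the ATF4 median was 0.27 with the correction and 0.30 to 0.38 with a library left out. Where that leaves 1 knockout library, it is assumed to vary like the others. Over all genes, 66 passed higher and 28 lower with all libraries, against 253 and 110 without a filter, 496 and 216 in DESeq2, 102 and 61 with the correction, 4 and 0 without vector library 1 or 2, 5 and 1 without vector library 3, 10 and 3 without knockout library 1, 7 and 1 without knockout library 3 and 1672 and 1451 without knockout library 2. In the latter fit they ranged from 669 and 465 to 2345 and 2358 with a further library left out. The labels do not say whether the replicate numbers pair the libraries. Same-numbered deviations correlated weakly, at 0.14, 0.19 and 0.08, and each library correlated best with its own number, so pairing stays unresolved. With the replicate block 0 members passed with all libraries (5 genes higher and 0 lower in all), and 14 higher and 13 lower without knockout library 2 (2721 and 2819 genes). PSPH, ATF5, EDEM1 and ERN1 passed there. In that fit replicate 2 was vector library 2 alone, so the block took that library out of the comparison. Its estimates therefore lie close to those without vector library 2 (PSPH 0.2615 and 0.2609).

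Genes that changed sign had small or uncertain values in the main fit for which they are listed. SDF2L1 and CRELD2 did so only with all libraries, and passed as lower without knockout library 2 (-0.35 and -0.40, edgeR adjusted p = 0.00127 and 0.000496). With all libraries these were SDF2L1 (-0.45 with the length and GC correction, -0.35 to 0.33 with a library left out), MANF (-0.058, and -0.14 to 0.37), CRELD2 (-0.40 to 0.033), ASNS (-0.57 to 0.023), NUPR1 (-0.014 to 0.98), ATF6 (-0.052 to 0.15) and CDK12 (-0.016 to 0.14). Without knockout library 2 they were ASNS (-0.0012 in limma-voom, -0.028 with the correction, -2.17e-05 with the stranded columns, -0.37 to 0.33 with a library left out), NUPR1 (0.12 with the replicate block, 0.043 with the correction, -0.092 to 0.12) and CDK12 (-0.0101 with the replicate block, -0.0100 to 0.16). The causes were not tested.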
